A study of Mus musculus with 7 samples.

Results

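Brush border hydrolases are the enzymes that finish digestion on the apical surface of the enterocyte, the absorptive cell of the intestinal epithelium. The 9 genes examined were the disaccharidases and glucosidases Lct, Sis, Mgam and Treh, the peptidases Anpep, Dpp4, Enpep and Mme, and the phosphatase Alpi. They were found on the array by gene symbol, as 11 of its 55681 probes and 9 of the 20887 genes with a symbol, with 2 probes each for Mgam and Mme. All 9 passed the filter on dim probes, which asked for a signal well above background on at least 2 of the 7 arrays.

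The tissue was intestinal epithelium released with 2 mM EDTA from the proximal intestine of male C57BL/6J-background mice aged 8 weeks. The knockout mice carried floxed alleles of both Mob1a and Mob1b with Villin-creERT2, a recombinase that tamoxifen activates and that the Villin promoter restricts to intestinal epithelial cells. They were taken 4 days (2 arrays), 7 days (2 arrays) and 10 days (1 array) after tamoxifen, which was given at 80 mg/kg per day on 2 days. The controls (2 arrays) carried the same floxed alleles without Cre and also received tamoxifen. Their sample labels place them 7 days after it, whereas the design text of the series names 0 days. On either account the day 4 and day 10 arrays have no control of the same day. Time since tamoxifen and the deletion cannot be told apart in those comparisons. Because the controls lack Cre, effects of CreERT2 itself and of the deletion cannot be told apart. The products of Mob1a and Mob1b are Hippo pathway adaptors that switch on the Lats kinases.

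Digestion of sugars and peptides ends at the microvilli. Membrane-bound glucosidases release monosaccharides there and peptidases trim peptides from either end, next to the transporters that carry the products into the cell. These enzymes are low in crypts and are switched on as cells leave the crypt and climb the villus, so they are standard markers of mature enterocytes. In mice lactase is high before weaning, and sucrase-isomaltase and trehalase rise at weaning. HNF4, CDX and GATA factors are known regulators of this gene group.

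Levels below are log2 signals relative to the 75th percentile of the array, and a difference of 1 is a doubling. The 75th percentile was 545 on the day 10 array and ran from 315 to 395 on the other 6, 45.2% to 51.3% of probes were well above background, and no spot was saturated. Arrays of a group correlated at 0.977 to 0.988 over 24760 tested features. The day 10 array correlated at 0.865 to 0.919 with the other 6, which correlated at 0.945 or more with each other. Row 2 of the slide held the day 7 and day 10 arrays and row 1 the others, so slide row and the later days cannot be told apart. The better measured of the targeted genes, Mob1b, had levels of -2.73 to -2.42 on the 5 knockout arrays and -1.13 and -0.90 on the control arrays. The 1 probe for Mob1a was dim, with levels of -3.87 and -3.71 on the control arrays, -4.26 and -3.85 at day 4, -3.67 and -3.41 at day 7 and -2.18 at day 10. It was not called at day 4 (-0.27 ± 0.25, adjusted p = 0.94) or day 7 (0.25 ± 0.25, adjusted p = 0.59) and was called higher at day 10 (1.60 ± 0.30, adjusted p = 0.011), against the direction of a knockout. Mob1b was not called at day 4 (-1.43 ± 0.22, adjusted p = 0.19). It was called lower at day 7 (-1.59 ± 0.22, adjusted p = 0.014) and day 10 (-1.64 ± 0.27, adjusted p = 0.0070). A dimmer Mob1b probe had levels of -3.43 to -2.50 on the knockout arrays and -1.68 and -1.51 on the control arrays. Whether these probes lie in deleted sequence is not known here. RNA came from bulk epithelium, in which fewer enterocytes and less RNA per enterocyte cannot be told apart.

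Of the 9 hydrolases 0 passed the test against control at day 4, Treh fell at day 7, and all 9 fell on the day 10 array. Of all features 0.0323%, 7.46% and 28.1% were called at these times. The Treh call at day 7 ended under 10 of 19 other settings and the Anpep call at day 10 under 3 of 18. The day 10 falls ran from 2.14-fold for Anpep to at least 7452-fold for Lct. Day 10 rests on 1 array, and its standard errors take the spread of the other groups.

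**Figure D1:**
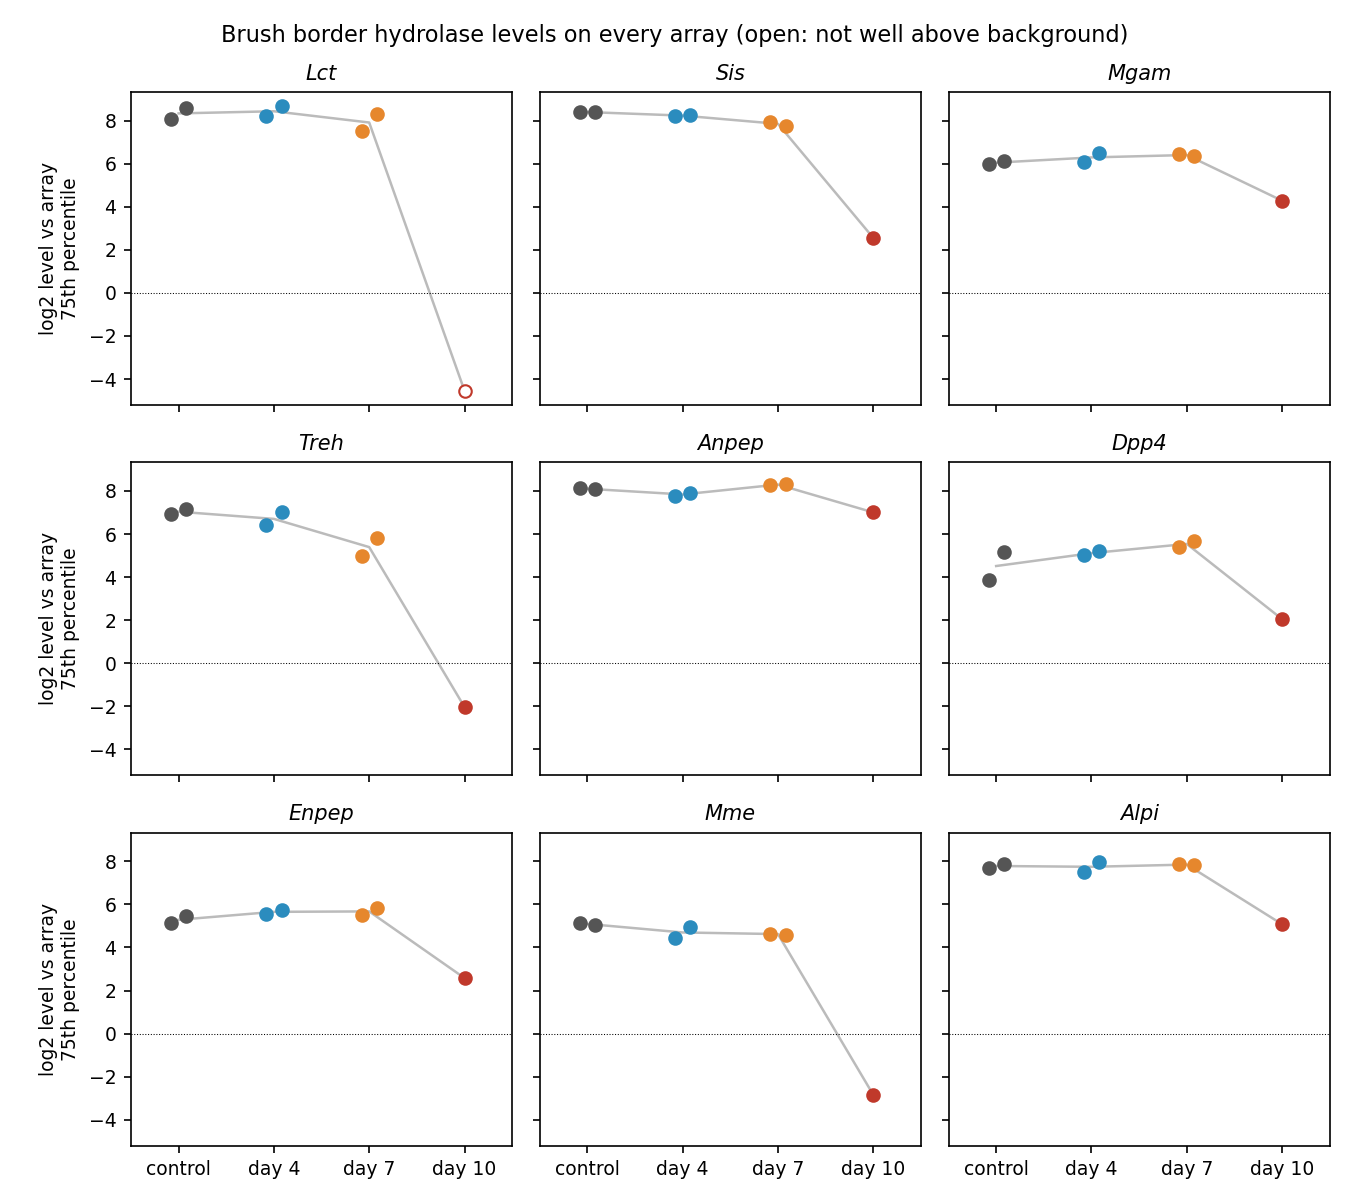
Level of each hydrolase on each of the 7 arrays (log2 relative to the array's 75th percentile; for Mgam and Mme the brighter probe), with columns for control, day 4, day 7 and day 10. Filled circles are arrays with a signal well above background, the open circle is the day 10 Lct spot, and the grey line joins group means. The day 10 point is the lowest in all 9 panels, from 7.00 for Anpep to -4.54 for Lct.

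The promoter windows of 4 members are shown because their genes include 3 of the 4 deepest day 10 falls (Lct, Treh and Sis; Mme is not shown) and the smallest (Anpep). Each is the 250 bases before the RefSeq start site (assembly GRCm38.p6), 5′ to 3′ on the gene's strand. They lie at chr1:128328319-128328568 (minus strand) for Lct, chr3:72967864-72968113 (minus) for Sis, chr9:44672983-44673232 (plus) for Treh and chr7:79848211-79848460 (minus) for Anpep. Capitals mark matches, on either strand, to the motifs named below.
Lct: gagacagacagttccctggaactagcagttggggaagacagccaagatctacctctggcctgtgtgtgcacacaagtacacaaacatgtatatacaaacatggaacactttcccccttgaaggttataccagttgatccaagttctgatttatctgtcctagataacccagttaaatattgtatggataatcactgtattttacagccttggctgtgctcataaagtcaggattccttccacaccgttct
Sis: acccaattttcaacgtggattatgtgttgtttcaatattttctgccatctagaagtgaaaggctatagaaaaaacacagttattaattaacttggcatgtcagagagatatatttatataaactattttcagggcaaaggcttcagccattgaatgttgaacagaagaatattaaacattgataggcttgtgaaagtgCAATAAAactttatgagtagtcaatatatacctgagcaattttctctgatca
Treh: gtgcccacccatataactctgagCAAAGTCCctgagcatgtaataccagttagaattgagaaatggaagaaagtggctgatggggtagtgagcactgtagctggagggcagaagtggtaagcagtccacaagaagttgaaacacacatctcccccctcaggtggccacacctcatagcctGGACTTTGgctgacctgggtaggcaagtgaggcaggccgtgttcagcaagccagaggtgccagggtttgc
Anpep: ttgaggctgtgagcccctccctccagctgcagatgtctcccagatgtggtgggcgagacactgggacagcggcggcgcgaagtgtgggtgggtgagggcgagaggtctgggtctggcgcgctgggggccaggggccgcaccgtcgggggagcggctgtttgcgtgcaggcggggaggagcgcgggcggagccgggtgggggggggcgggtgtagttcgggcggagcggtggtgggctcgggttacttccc

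All 9 members matched the RefSeq promoter table. The motifs searched on both strands were CAAAGTCC for HNF4, TTTATNG for CDX and TGATAA for GATA. They were held by 1.2%, 9.74% and 7.79% of all 32536 distinct promoter windows of this length. No member window held TGATAA. Other forms of the GATA site, such as the AGATAA in the Lct window, were not searched or counted. HNF4 matches occurred in Treh, which had 2, and Alpi, and CDX matches in Sis, Dpp4 and Alpi. The Anpep window had a GC content of 72.8%, against 31.6% in Sis, 42.8% in Lct and 53.2% in Treh. Mme, which fell 245-fold at day 10, had 3 start sites, with windows at 45.6%, 73.2% and 73.6%. Those of Mgam, Dpp4, Enpep and Alpi ran from 42.4% to 54.4%. A relation of GC content to the falls was not tested. A match in these windows is a description only, and binding was not measured.

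At day 4 after tamoxifen 0 of the 9 hydrolases were called by limma at an adjusted p under 0.05, and 0 had an unadjusted p under 0.05. Of all features 0.0323% were called and 6.23% had an unadjusted p under 0.05. The members' median difference from control was -0.04, with a range from -0.40 for Mme to 0.60 for Dpp4, and the median of all features was -0.08. For 5 members the day 4 and control arrays overlapped. Enpep was higher on both day 4 arrays, and Sis, Anpep and Mme were lower on both. That is 1 higher and 3 lower of 9, where 10.9% of all features were higher and 26.7% lower without overlap. The 95% interval was widest for Dpp4 (-0.45 to 1.64) and narrowest for Anpep (-0.75 to 0.23).

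At day 7 only 1 of the 9 hydrolases, Treh, was called, and it was lower. Of all features tested 7.46% were called and 4.5% were called lower, so a count of 1 in 9 is close to the background. The members' median difference was 0.07, with a range from -1.64 to 1.03, and that of all features was -0.08. Another member, Sis, had an unadjusted p under 0.05 (22.6% of features did). Mgam, Anpep, Dpp4 and Enpep were higher on both day 7 arrays than on both controls, and Sis, Treh and Mme were lower on both. Across all features 21.8% were higher and 32.4% lower without overlap.

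On the day 10 array all 9 hydrolases were called lower than control, where 28.1% of all features were called and 17.6% were called lower. The members' median difference was -2.71, beside -0.15 for all features. Anpep had the smallest fall (-1.10) and Mgam the next (-1.77).

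**Figure D2:**
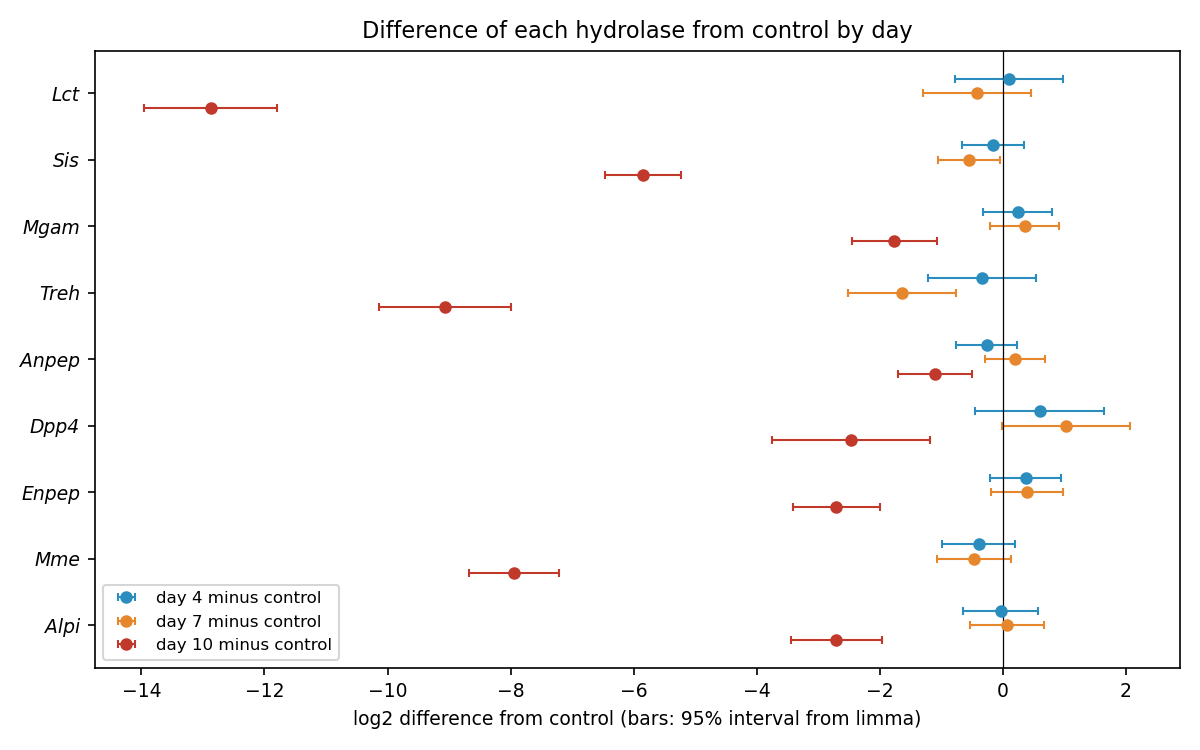
Difference of each hydrolase from control (log2, horizontal axis) at day 4, day 7 and day 10, with 95% intervals from limma. At day 4 every interval spans 0, at day 7 those of Treh and Sis lie below 0, and at day 10 all 9 lie below 0, from -1.10 for Anpep to -12.88 for Lct.

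Among the disaccharidases, Lct encodes lactase, which splits milk sugar into glucose and galactose. Its level was 8.08 and 8.59 on the control arrays, 8.20 and 8.67 at day 4, 7.50 and 8.32 at day 7 and -4.54 at day 10. The first 3 groups overlap, and the day 10 spot was not well above background. Folds given as "at least" use a nominal floor, described with the processing below. Lct was at least 7452-fold lower at day 10 than in controls (adjusted p = 1.56e-04) and at least 5558-fold lower than at day 7 (adjusted p = 4.41e-04). At day 7 it differed from control by -0.42 ± 0.36 (SE; 95% interval -1.31 to 0.46, adjusted p = 0.54). That value was -0.83 without day 7 replicate 2 and -0.017 without day 7 replicate 1.

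Sis encodes sucrase-isomaltase, which cleaves sucrose and starch fragments. Its levels were 8.38 and 8.41 on the control arrays, 8.20 and 8.27 at day 4, 7.95 and 7.75 at day 7 and 2.55 at day 10. Each group lay below the one before it without overlap. That order depends on the processing, because with normexp background correction the day 4 difference from control was 0.57. Over all other settings the day 7 difference ran from -0.97 to -0.03. The day 7 difference of -0.55 ± 0.21 did not pass (unadjusted p = 0.038, adjusted p = 0.19). At day 10 Sis was 57.4-fold lower than in controls (-5.84 ± 0.25, adjusted p = 2.28e-04) and 39.3-fold lower than at day 7.

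Treh encodes trehalase, which splits trehalose, a sugar of fungi and insects, into glucose. Levels were 6.93 and 7.14 on the control arrays, 6.40 and 7.00 at day 4, 4.97 and 5.81 at day 7 and -2.03 at day 10, the last still well above background. Group means were 7.04 ± 0.15 in controls, 6.70 ± 0.42 at day 4 and 5.39 ± 0.59 at day 7 (SD, n = 2 each). Both day 7 arrays were below both controls and both day 4 arrays. Treh was 3.13-fold lower at day 7 than in controls (-1.64 ± 0.36, adjusted p = 0.049). This call sits at the threshold and ended under 10 of 19 other settings, in which the difference stayed between -1.75 and -1.22. These 10 are not separate checks. Leaving out either day 4 array, or comparing only day 7 and control, gave identical results for this comparison. It ended when control replicate 1 (adjusted p = 0.16), control replicate 2 (0.15), either day 4 array (0.084) or day 7 replicate 1 (0.16) was left out. Against day 4 the day 7 difference was -1.31 ± 0.36 (adjusted p = 0.13). At day 10 Treh was 538-fold lower than in controls (-9.07 ± 0.44, adjusted p = 2.28e-04).

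Mgam encodes maltase-glucoamylase, which releases glucose from the ends of starch chains. Its brighter probe had levels of 5.99 and 6.10 on the control arrays, 6.10 and 6.48 at day 4, 6.45 and 6.35 at day 7 and 4.28 at day 10. The day 7 arrays lay above both controls, by 0.35 ± 0.23 (95% interval -0.21 to 0.92, adjusted p = 0.42). The other probe had 3.37 and 3.41 on the control arrays, 3.58 and 3.98 at day 4, 3.42 and 3.65 at day 7 and 0.99 at day 10. Both probes fell at day 10, the brighter by 3.40-fold (adjusted p = 0.0063) and the dimmer by 5.27-fold (adjusted p = 0.0024, from a fit with every probe kept).

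Of the peptidases, Anpep encodes aminopeptidase N, which removes neutral residues from the amino end of peptides. Its levels were 8.12 and 8.08 on the control arrays, 7.79 and 7.89 at day 4, 8.29 and 8.31 at day 7 and 7.00 at day 10. The day 7 arrays were above, and the day 4 arrays below, both controls. The day 10 fall was 2.14-fold (-1.10 ± 0.25, adjusted p = 0.021). That call ended with quantile normalization (-0.57, adjusted p = 0.13) and when control replicate 1 (-1.08, adjusted p = 0.083) or control replicate 2 (-1.12, adjusted p = 0.069) was left out. At day 7 the difference was 0.19 ± 0.20 (95% interval -0.30 to 0.68).

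Dpp4 encodes a dipeptidyl peptidase, which releases dipeptides from the amino end of peptides with proline or alanine in the position next to that end, including the incretin hormones. Levels were 3.87 and 5.16 on the control arrays, 5.02 and 5.20 at day 4, 5.39 and 5.69 at day 7 and 2.05 at day 10. The controls lay further apart for Dpp4 (SD 0.91, n = 2) than for any other member's tested probe. Dpp4 had the highest day 7 difference of the 9, at 1.03 ± 0.43 (95% interval -0.02 to 2.07, adjusted p = 0.23), and the value was 0.38 without control replicate 1 and 1.67 without control replicate 2. Dpp4 was 5.53-fold lower on the day 10 array than in controls (-2.47 ± 0.53, adjusted p = 0.017) and 11.3-fold lower than at day 7 (-3.49 ± 0.53, adjusted p = 0.0078). The day 10 difference from control was -3.11 without control replicate 1 and -1.82 without control replicate 2, and it was called in both.

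Enpep encodes aminopeptidase A, which removes acidic residues and cleaves angiotensin peptides. It had 5.13 and 5.44 on the control arrays, 5.56 and 5.75 at day 4, 5.53 and 5.82 at day 7 and 2.58 at day 10. All 4 arrays of day 4 and day 7 lay above both controls, and neither difference passed (0.37 ± 0.24 at day 4 and 0.39 ± 0.24 at day 7). Enpep fell 6.53-fold at day 10 (-2.71 ± 0.29, adjusted p = 0.0016).

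Mme encodes neprilysin, an endopeptidase that cuts within peptides. Its brighter probe had 5.16 and 5.03 on the control arrays, 4.45 and 4.94 at day 4, 4.64 and 4.60 at day 7 and -2.84 at day 10, which was still well above background. All arrays of day 4 and day 7 were below both controls, with differences of -0.40 ± 0.25 and -0.47 ± 0.25 that did not pass. At day 10 this probe was 245-fold lower (-7.94 ± 0.30, adjusted p = 1.86e-04). The dimmer probe, not well above background at day 10, was at least 291-fold lower there and overlapped control at day 4 and day 7.

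Alpi encodes an intestinal alkaline phosphatase, which removes phosphate from nucleotides and from bacterial lipopolysaccharide. Levels were 7.69 and 7.88 on the control arrays, 7.50 and 7.99 at day 4, 7.87 and 7.83 at day 7 and 5.08 at day 10. The day 7 and control arrays overlapped (0.07 ± 0.25, 95% interval -0.54 to 0.67). Alpi fell 6.53-fold at day 10 (-2.71 ± 0.30, adjusted p = 0.0018). The closely related phosphatase gene Akp3 is described below with the other surface enzymes, and whether either probe also binds the other transcript was not tested.

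Between day 4 and day 7 0 of the 9 members were called by limma, where 2.67% of features were called. Treh was the 1 member with an unadjusted p under 0.05, as 17.4% of features had. The members' median was 0.02, beside -0.01 for all features. From day 7 to day 10 all 9 were called lower, with a median of -3.49 and a range from -12.45 to -1.29, where 10.7% of features were called lower and the median of all features was -0.08.

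Other hydrolases of the enterocyte surface were listed beside the members. Of 16 listed 13 were tested, and 0 rose and 2 fell at day 7 (median -0.37), while 0 rose and 12 fell at day 10 (median -4.52). Tmprss15, the enteropeptidase that activates trypsin, fell 4.88-fold at day 7 (-2.29 ± 0.34, adjusted p = 0.016) and 154-fold at day 10. Akp3 fell 5.55-fold at day 7 (-2.47 ± 0.35, adjusted p = 0.014) and was at least 342-fold lower at day 10. The γ-glutamyl transferase gene Ggt1 differed by -1.13 ± 0.28 at day 7 (adjusted p = 0.067) and fell 22.9-fold at day 10. Xpnpep2, an aminopeptidase for peptides with proline, stood at 0.88 ± 0.23 at day 7 (adjusted p = 0.079) and fell 14.8-fold at day 10. The 1 tested gene not called at day 10 was Nt5e, a nucleotidase (-0.30 ± 0.54, adjusted p = 0.72).

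Microvilli are built from actin bundles, motors and adhesion proteins. Of 17 such genes tested, 0 were called at day 7 (median 0.09; 2 had an unadjusted p under 0.05, Myo7b and Calml4), and at day 10 0 rose and 8 fell (median -1.18). The bundling protein gene Pls1 fell 4.03-fold at day 10 (adjusted p = 0.0029) and the motor gene Myo7b 3.16-fold (adjusted p = 0.020). The calmodulin-like gene Calml4 fell 3.31-fold (adjusted p = 0.042), and the protocadherin gene Cdhr2 differed by -0.75 ± 0.29 (adjusted p = 0.10). Vil1, whose promoter drives the Cre, fell 2.68-fold (adjusted p = 0.010; named after its value was seen). The lists were not tested against each other.

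**Figure D3:**
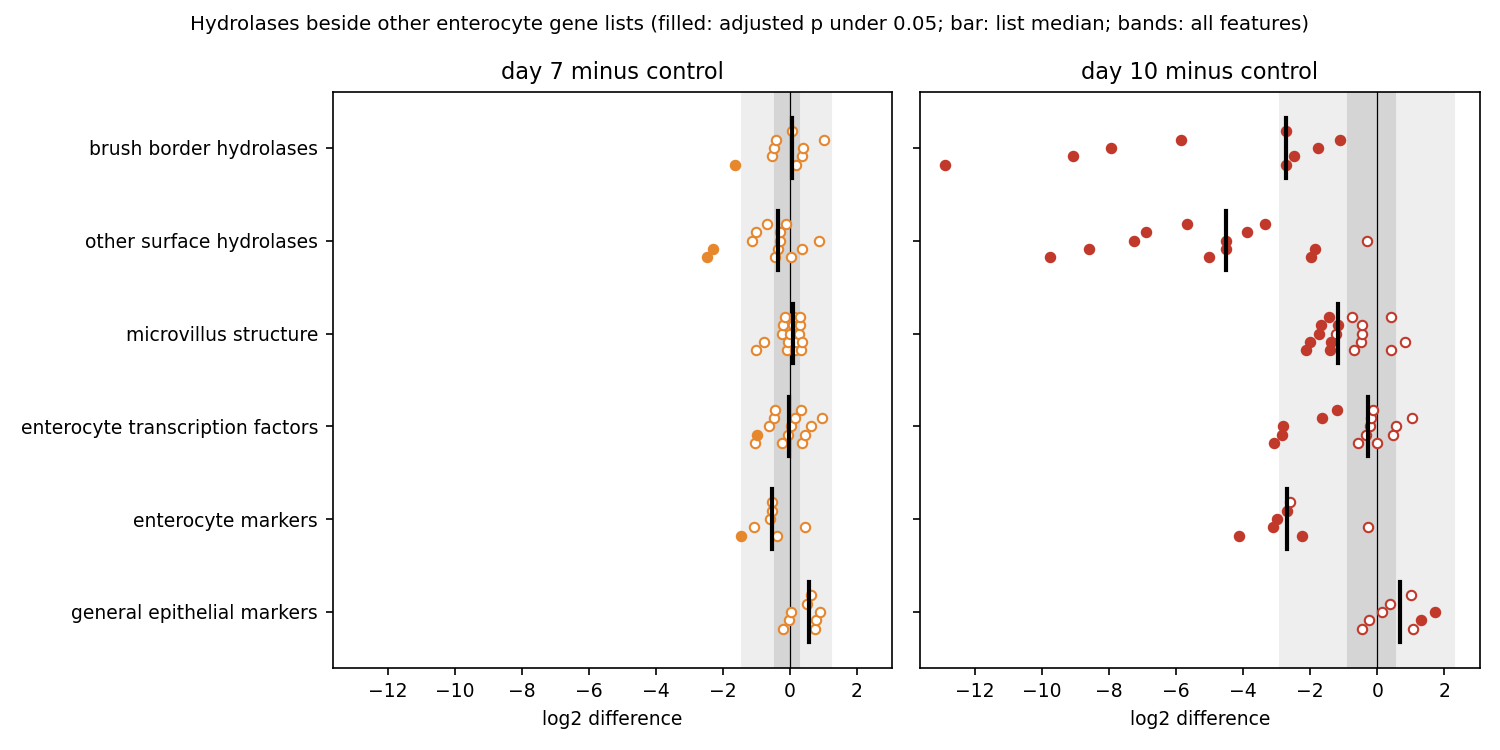
Difference from control (log2, horizontal axis) of each tested gene of 6 lists at day 7 (left) and day 10 (right); filled points had an adjusted p under 0.05, the black bar is the list median, and the grey bands span the middle 50% and 90% of all features. At day 10 the hydrolase median is -2.71, that of other surface hydrolases -4.52, of microvillus genes -1.18 and of general epithelial markers 0.68.

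Among 15 listed transcription factors of enterocytes 14 were tested. At day 7 Cdx1 alone was called (-0.98 ± 0.20, adjusted p = 0.042), and at day 10 0 rose and 5 fell, with a median of -0.28. Those 5 were Hnf4g (8.39-fold), Cdx1 (7.22-fold), Maf (7.07-fold), Creb3l3 (3.13-fold) and Gata6 (2.29-fold). Their relatives Hnf4a (-0.33 ± 0.29), Cdx2 (-0.12 ± 0.27) and Gata4 (0.56 ± 0.31) were not called at day 10. Hnf4g had a level of 0.55 at day 10 and 3.61 and 3.63 on the control arrays, and Hnf4a had 7.04 at day 10 and 7.31 and 7.43 on the control arrays. Hnf4g and the 3 uncalled factors were named after their values were seen.

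Transporters of the mid-villus carry what the hydrolases release into or out of the enterocyte. Of the 5 tested, 0 rose and 2 fell at day 7, and all 5 fell at day 10 (median -4.31). The glucose transporter gene Slc2a2 fell 3.06-fold at day 7 (adjusted p = 0.028) and 84.6-fold at day 10. The fructose transporter gene Slc2a5 fell 3.21-fold (adjusted p = 0.038) and 55.5-fold. Slc5a1, the sodium-dependent glucose transporter gene, differed by -1.02 ± 0.45 at day 7 (adjusted p = 0.25) and fell 19.8-fold at day 10. Of 6 villus tip genes 0 were called at day 7 and 3 fell at day 10. Of 4 tested villus base genes 0 were called at day 7 and 1 fell at day 10.

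Lct is also a gene of the suckling period, and 6 other genes of that period were tested. At day 10 Fcgrt, Amn and Cubn fell 21.1-fold, 19.3-fold and 22.9-fold, and Dab2 was at least 11.6-fold higher. At day 7 Fcgrt fell 4.18-fold (adjusted p = 0.014) and Dab2 was at least 2.63-fold higher. Dab2 was well above background on only 2 of the 7 arrays, day 7 replicate 2 and day 10. It passed the filter only through these arrays, where it is high, so its calls are a description only. Cubn was named after its values were seen.

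Markers of cell types moved beside the hydrolases on the day 10 array. All 8 general epithelial and all 7 tested enterocyte markers were well above background on every array. The epithelial markers summed to 1302 to 1330 times the array's 75th percentile in controls and 1279 to 1305 at day 4. They summed to 1528 to 1542 at day 7 and 1779 at day 10. This sum is weighted to bright genes such as Krt18 (8.76 at day 10, 7.11 and 6.97 in controls) and Krt19 (8.48, 7.54 and 7.43). Krt20 (8.41, 8.36 and 8.92) and Cldn7 (7.77, 8.54 and 7.92) did not rise above both controls. These genes were named after their values were seen. The enterocyte markers summed to 1731 to 1784 in controls, 1354 to 1564 at day 4, 960 to 1460 at day 7 and 287 at day 10. Of the 7 enterocyte markers 1 was called lower at day 7 and 5 at day 10, and 0 were called higher. Of the 8 epithelial markers 0 were called at day 7, and 2 were called higher and 0 lower at day 10. With the arrays centred on the 8 epithelial markers all 9 hydrolases were called lower at day 10, from -13.49 for Lct to -1.71 for Anpep, and Treh and Sis (-0.97, adjusted p = 0.029) at day 7. The same centring called 10872 of 24760 features at day 10 and 3974 at day 7, of which 14.8% and 14.4% were higher, and moved the median of all features to -0.76 and -0.51. It was chosen after the data were seen.

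The 7 T cell markers summed to 13.6 at day 10 and 192 to 217 in controls, and all 7 fell. The 5 tested myeloid markers summed to 219 at day 10 and 34.4 to 36.7 in controls, with 3 higher. Of these S100a9, a neutrophil gene, was at least 3633-fold higher. S100a9 was well above background only on the day 7 and day 10 arrays and passed the filter only through them. The myeloid sum is weighted to bright genes, mainly Itgam in controls (5.02 and 5.08) and S100a9 at day 10 (7.22). Csf1r had a level of 3.78 at day 10 and 0.44 and 0.48 in controls. Lyz2 did not rise, and its day 10 level of -1.14 lay below both controls. These myeloid genes were named after their values were seen. Dpp4, Anpep and Mme are also known from leukocytes. Of the 6 goblet markers 5 fell at day 7 and 6 at day 10. The 5 tested Paneth markers summed to 54.2 at day 10 and 563 to 815 in controls (4 fell), and the 6 enteroendocrine markers to 22.4 at day 10 and 369 to 408 in controls (6 fell). The 4 tested stem cell markers summed to 1.48 at day 10 and 17.1 to 23.1 in controls, and all 4 fell. All 3 tested tuft markers fell, with sums of 0.13 at day 10 and 1.70 to 1.79 in controls.

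The 3 ileum markers summed to 6.94 at day 10 and 0.41 to 0.53 in controls. This sum is nearly all Slc10a2 at day 10. Of the 3 markers 1 was called higher and 1 lower there, with a median difference of -1.17. Slc10a2, the ileal bile acid transporter gene, was 35.6-fold higher (5.15 ± 0.56, adjusted p = 0.0016), with a level of 2.78 at day 10 and -2.42 and -2.32 on the control arrays. Fabp6, an ileal bile acid binding protein gene, was at least 3.58-fold lower. Osr2 had a level of -4.48 at day 10 and -2.43 and -4.19 on the control arrays. All 3 were named after their values were seen. Of 8 pancreas markers 1 passed the dim filter, as did 1 of 4 smooth muscle, 3 of 6 fibroblast, 2 of 5 endothelial and pericyte, 3 of 5 erythroid and 4 of 6 B and plasma cell markers. The part of the cell type and ileum marker shifts in the hydrolase falls was not tested.

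**Figure D4:**
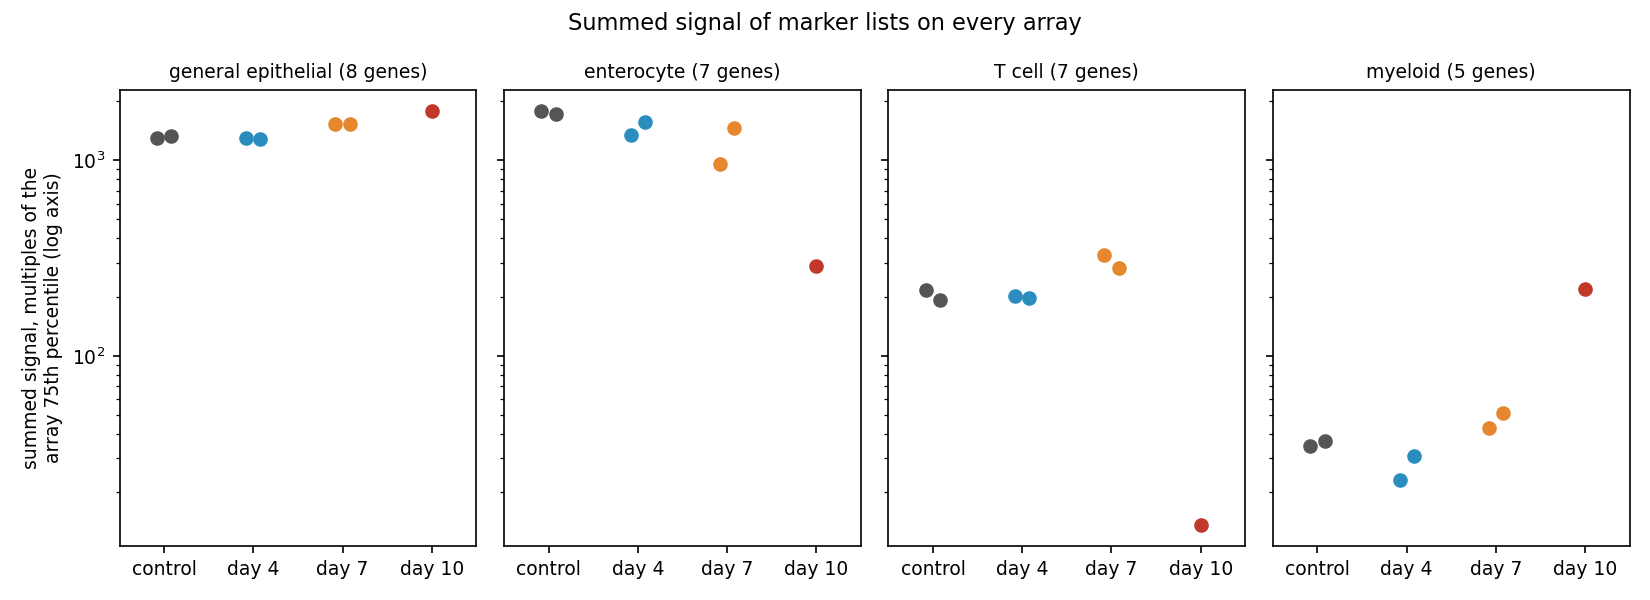
Summed signal of 4 marker lists on each of the 7 arrays, in multiples of the array's 75th percentile on a log axis, by group. At day 10 the enterocyte sum (287) and the T cell sum (13.6) are the lowest and the epithelial sum (1779) and the myeloid sum (219) the highest of the 7 arrays.

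Over the 7 arrays, the genes most like each hydrolase had Pearson correlations from 0.991 to 0.9998, given as a description. Such values rest largely on the single day 10 array. They were Slc27a2 and Dtx1 for Lct, Otc and Ugt2a3 for Sis, Pck1 and Fam20a for Treh, and Erlin1 and Atxn7l3b for Mgam. For the peptidases they were Dab1 and 2810021J22Rik (Anpep), Ldb3 and Cggbp1 (Dpp4), Olfr165 and Fam149b (Enpep), and Epb41l3 and Dpep1 (Mme). For Alpi they were Fbxo8 and Acadm. Dpep1, a dipeptidase gene of the brush border, fell 51.0-fold at day 10.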

How the data were processed

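RNA from 7 samples was measured on 1-colour Agilent arrays (design 028005) on 1 slide. The deposited intensity values are Feature Extraction 11.5.1.1 output, per the file headers, background-subtracted and not scaled between arrays. The deposited columns used carry accessions, which were named through RefSeq (GRCm38.p6). Of 55681 probes 27509 had 1 symbol, 0 several and 28172 none.

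Control spots and outlier-flagged spots (115 to 274 per array) were left out, 34 probes for that reason. Spots of a probe were averaged as log2 intensity minus the array's 75th percentile. Features (13802 genes, each by its brightest probe, and 10958 unnamed probes) were kept where 2 or more of the 7 arrays had a signal well above background. limma 3.58.1 in R 4.3.3 fitted 1 mean per group over all arrays (3 residual and 3.16 prior degrees of freedom), with Benjamini-Hochberg adjustment over 24760 features, and was tested on simulated data. Where no array of a group was well above background, folds are "at least". They are taken against the higher of the array's lowest such signal and the probe's own. That floor is nominal, because some brighter spots also failed. Mob1a on control replicate 1, at -3.87, was not well above background, where the lowest such signal was -4.72. Replicates were different mice, per the series' design text, which does not describe the day 10 array. The number of arrays limits the precision.

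Members, 23 other gene lists and tests were chosen with earlier results of these data known. Every member and probe was named, up to 4 genes per pathway list with the smallest p for day 7 minus control, and 2 genes most correlated with each member. Alternatives covered background correction (normexp on the median spot signal, offset 50), scaling, filters, probe choice, the deposited value table of the same intensities, the groups fitted, a replicate block and each replicate left out. Deviations of same-numbered arrays from their group means correlated at 0.01, 0.09 and 0.25, so the numbers were not taken as pairs. Motifs were counted with Python 3.11.15.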

Additional observations from a re-analysis of the deposited data

Results flagged for a closer look

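For all 9 hydrolases the difference from control at day 10 was itself different from that at day 7, by limma's test of day 10 minus day 7. The shared controls cancel, so this is the comparison of day 7 and day 10 already given above, not a further result. Of all features 17.9% were called in it and 10.7% were called lower. The change between these days was -12.45 for Lct (adjusted p = 4.41e-04; the day 10 spot was not well above background), -5.30 for Sis, -7.43 for Treh and -2.12 for Mgam. It was -1.29 for Anpep (adjusted p = 0.018), -3.49 for Dpp4, -3.10 for Enpep, -7.47 for Mme and -2.77 for Alpi. Over the 9 the adjusted p ran from 4.41e-04 to 0.018. Each rests on 1 array at day 10, whose spread was taken from the other groups. No group held the 4 arrays needed to look for an array that stands apart.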

How the results depend on the processing

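Of 832 member values under other settings, 793 kept direction and side of the threshold, 13 lost their call, 1 gained one and 25 changed sign, none of the last a called difference. The hydrolases called numbered 0 at day 4 and between day 4 and day 7 under all settings, and 8 or 9 for day 10 against control or day 7. Lct gave no value where a feature had to be detected on all 7 arrays.

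At day 7 the count of 1 became 0 with quantile normalization (Treh -1.44, adjusted p = 0.084), scaling to probes detected on all arrays (0.066), no filter on dim probes (0.12), all non-control spots in the percentile (0.051, added after seeing the data) and only the 2 groups compared (0.084). It lay between 0 and 1 with each replicate left out, being 0 without either control (Treh adjusted p = 0.16 and 0.15), either day 4 array (0.084) or day 7 replicate 1 (-1.22, 0.16), and was 2 when centred on epithelial markers. The Treh adjusted p ran from 0.011 to 0.16. The Treh difference stayed at -1.64 without either day 4 array and with only the 2 groups compared. There only the error estimate and the adjustment changed. The cause of the other changes was not tested.

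Signs turned at day 4 for Sis with normexp (0.57) and for Alpi with quantile normalization (0.11), detected probes (0.017) and median scaling (0.023). With 1 replicate left out, day 4 values ran from -0.15 to 0.35 for Lct, -0.048 to 1.24 for Dpp4 and -0.28 to 0.21 for Alpi, and Alpi at day 7 from -0.028 to 0.16. Day 7 minus day 4 ran from -0.080 to 0.30 for Mgam, -0.12 to 0.16 for Enpep, -0.14 to 0.35 for Alpi and -0.32 to 0.17 for Mme. That comparison also turned for Enpep with normexp (-0.16) and median scaling (-0.042) and for Mgam with the mean of probes (-0.066). Epithelial centring gave day 7 values of -0.067 for Mgam, -0.23 for Anpep, -0.034 for Enpep and -0.36 for Alpi, and day 7 minus day 4 values of -0.30 for Mgam, -0.40 for Enpep and -0.31 for Alpi.

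Over all features the calls numbered 8 at day 4 (1 to 27), 1847 at day 7 (522 without control replicate 1 to 3974 with epithelial centring), 6953 at day 10 (4578 without control replicate 1 to 10872), 661 from day 4 to day 7 (0 without day 4 replicate 2 to 1263) and 4436 from day 7 to day 10 (3242 to 4790). The share called higher was 37.2% at day 10, 49.2% with detected probes, 49.7% with no filter and 14.8% with epithelial centring; at day 7 it was 39.6%, 51.1% without control replicate 1, 51.7% without day 7 replicate 1 and 14.4% with epithelial centring, which moved the median of all features to -0.76 at day 10 and -0.51 at day 7. From day 4 to day 7 it was 46.4%, 34.4% with median scaling, 59.5% with no filter, 67.5% without day 7 replicate 1 and 18.3% with epithelial centring. From day 7 to day 10 it was 40.2%, 50.9% with detected probes, 30.0% with median scaling and 55.5% with no filter. At day 4 it was 100%, 76.5% with normexp, 88.9% with median scaling, 83.3% with the strictest filter and 37.5% without control replicate 2.

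With the replicate block, 0, 1 and 9 hydrolases were called at days 4, 7 and 10, and features called were 2 at day 4 and 1866 at day 7. It changed no member's call.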
